A study of Homo sapiens with 6 samples.

Results

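Receptor tyrosine kinases and the insulin-like growth factor (IGF) axis were examined through 40 genes: 30 receptors, 4 adaptors and 6 IGF-binding proteins. The members were taken as the transcript clusters of the deposited table that the platform annotation pairs with a single symbol from that list, and 38 of the 40 were found among 22375 such genes. ERBB2 and DDR1 have clusters paired with a second symbol as well, so they were not analysed here, and every one of the 38 others had 1 cluster. The cells were H1299, an established human non-small cell lung carcinoma line grown in RPMI medium with serum. For 14 days they received either the DMSO vehicle or 500 nM PD 0332991 (palbociclib) in DMSO; the drug is an inhibitor of the kinases CDK4 and CDK6. Total RNA was measured on 3 Affymetrix arrays per treatment, and the study's title frames the drug as a way to reactivate the retinoblastoma protein. A single line at a single dose and time was used. Whether arrays of 1 treatment stem from different cultures is not in the labels, so each p-value reflects no more than the variation among these arrays, which may be technical.

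Receptor tyrosine kinases span the plasma membrane, bind growth factors outside the cell and phosphorylate themselves and docking proteins inside it. IRS1, IRS2 and GAB1 are such docking proteins, through which the receptors reach phosphatidylinositol 3-kinase and the RAS and ERK cascade. The IGF-binding proteins are secreted and hold IGF1 and IGF2 away from the IGF1 receptor or deliver them to it. In lung carcinoma EGFR, MET, ALK, RET and FGFR1 are known as altered or drugged receptors.

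On the second principal component (4.89% of the variance, the first holding 89.1%) DMSO replicate 1 and PD 0332991 replicate 2 scored 16.5 and 15.8. DMSO replicate 3 and PD 0332991 replicate 1 lay at the other end (-14.1 and -12.1). DMSO replicate 2 and PD 0332991 replicate 3 lay between (-2.48 and -3.66). Without DMSO replicate 1 and PD 0332991 replicate 2 the same 12 members were called higher and the same 5 lower. The median log2 value per array ranged from 4.85 to 4.98. The proliferation marker genes MKI67 and CCNA2 fell by 7.42 and fell by 6.76. Of the epithelial markers KRT8, which rose by 0.79 ± 0.08 (SE), and KRT18, with a change of -0.04 ± 0.07, stood above background and EPCAM, KRT19 and CDH1 did not, while the mesenchymal markers VIM and CDH2 did in both groups. None of 5 airway and alveolar, 4 endothelial and 4 measured fibroblast markers stood above background in either group. Among 4 measured blood markers only CD68 did, a lysosomal protein gene that macrophages express highly; it fell by 2.30 ± 0.11 from 12.71 to 10.42 (limma adjusted p = 1.2e-06). The part of these marker changes in the results for the members was not tested. The mean log2 level of the endothelial markers was 4.41 to 4.61 on the DMSO arrays and 4.44 to 4.64 on the PD 0332991 arrays, and that of the fibroblast markers was 4.23 to 4.49 and 4.31 to 4.56. PECAM1, an endothelial marker, was called higher by 0.40 at levels below background in both groups.

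The table has no detection flags, so background was read from 364 olfactory receptor genes, which a lung carcinoma line is not expected to use; 29 of them were called changed. The 95th percentile of their mean level over the 6 arrays was 5.29, and a member was taken as well measured where both group means lay above it. By that rule 20 members were above background in both groups, 2 in the PD 0332991 group only and 16 in neither. The receptors divided into 14 above it in both groups, DDR2 and ROR2 under PD 0332991 only, and 12 dim ones. The dim receptors were ERBB4, FGFR2, MST1R, PDGFRA, PDGFRB, KIT, RET, ALK, NTRK2, NTRK3, KDR and FLT1. The other dim members were IRS2, GRB10, IGFBP5 and IGFBP7. FLT4, at 5.39 and 5.30, and IGFBP4, at 5.33 and 5.36, lay just above the background level in both groups, and MST1R, at 4.88 and 4.91, was the nearest below it. At the 99th percentile, 6.53, only 7 members stood above background in both groups: AXL, MET, EGFR, IGF1R, MERTK, FGFR1 and TYRO3. DDR2, ROR1, IRS1 and GAB1 stood above that level under PD 0332991 only. INSR, ERBB3, ROR2, FGFR3, PTK7, IGFBP3 and FGFR4, all called below, were above it in neither group. The sizes of the changes of these called members are therefore less certain. Levels are not set against each other between genes, because each cluster has its own probes.

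**Figure D1:**
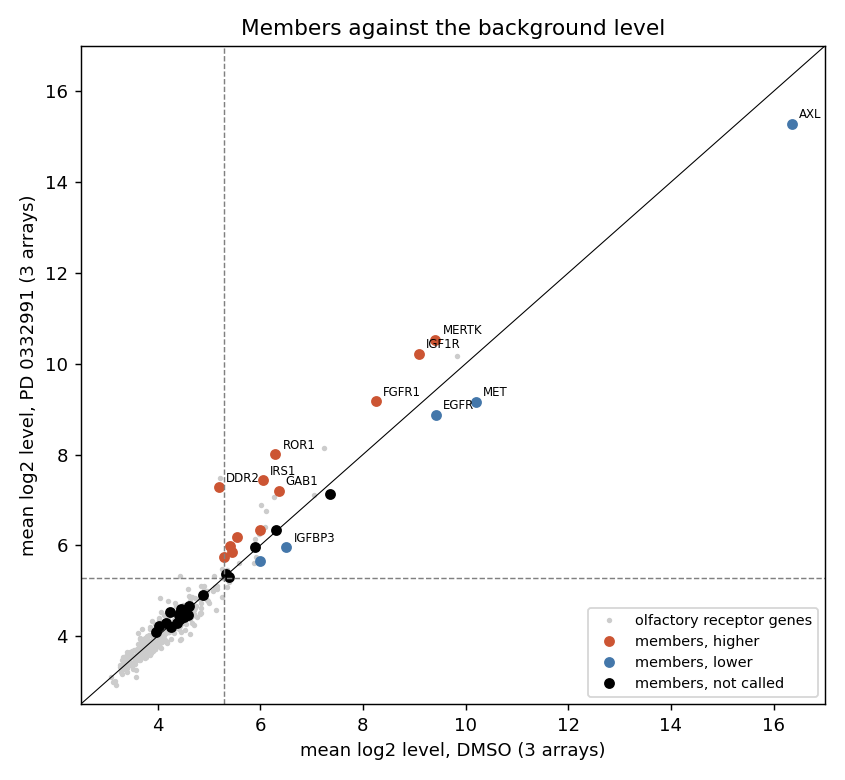
Mean log2 level under DMSO (horizontal axis) against PD 0332991 (vertical axis), 3 arrays each, for the 38 members and 364 olfactory receptor genes, with dashed lines at the background level of 5.29 and a solid line of equal levels. The 16 dim members lie inside the cloud of olfactory receptor genes, and AXL, MET, MERTK, IGF1R, EGFR and FGFR1 lie clear of both dashed lines.

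Of the 38 members 12 rose under PD 0332991, 5 fell and 21 did not pass (limma, Benjamini-Hochberg adjusted over all genes). Over all 22375 genes 38.1% were called, 19.6% higher and 18.5% lower, and the members' share was 44.7%, so the number of calls does not set the members apart. The median change of the members was 0.06 and that of all genes 0.00 on the log2 scale. The members that rose were DDR2, ROR1, IRS1, IGF1R, MERTK, FGFR1, GAB1, INSR, ERBB3, ROR2, FGFR3 and PTK7, in order of their change from 2.09 to 0.35. The members that fell were AXL, MET, IGFBP3, EGFR and FGFR4, with changes from -1.07 to -0.33. Changes of 1 or more were found in 5 members that rose and 2 that fell, where the whole array had 4.52% and 5.43% of genes. The arrays of the groups did not overlap in 23 members, among them all 17 that were called, where 47.5% of all genes did not overlap. In RNA from whole cultures, fewer cells that express a gene and less of its RNA per cell cannot be told apart.

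None of the 16 dim members was called. Of all genes above background in neither group 5.04% were called, and of those above it in both groups 61.3%. A lack of response was therefore not shown for dim members. Of the 20 members above background in both groups 10 rose, 5 fell and 5 did not pass.

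**Figure D2:**
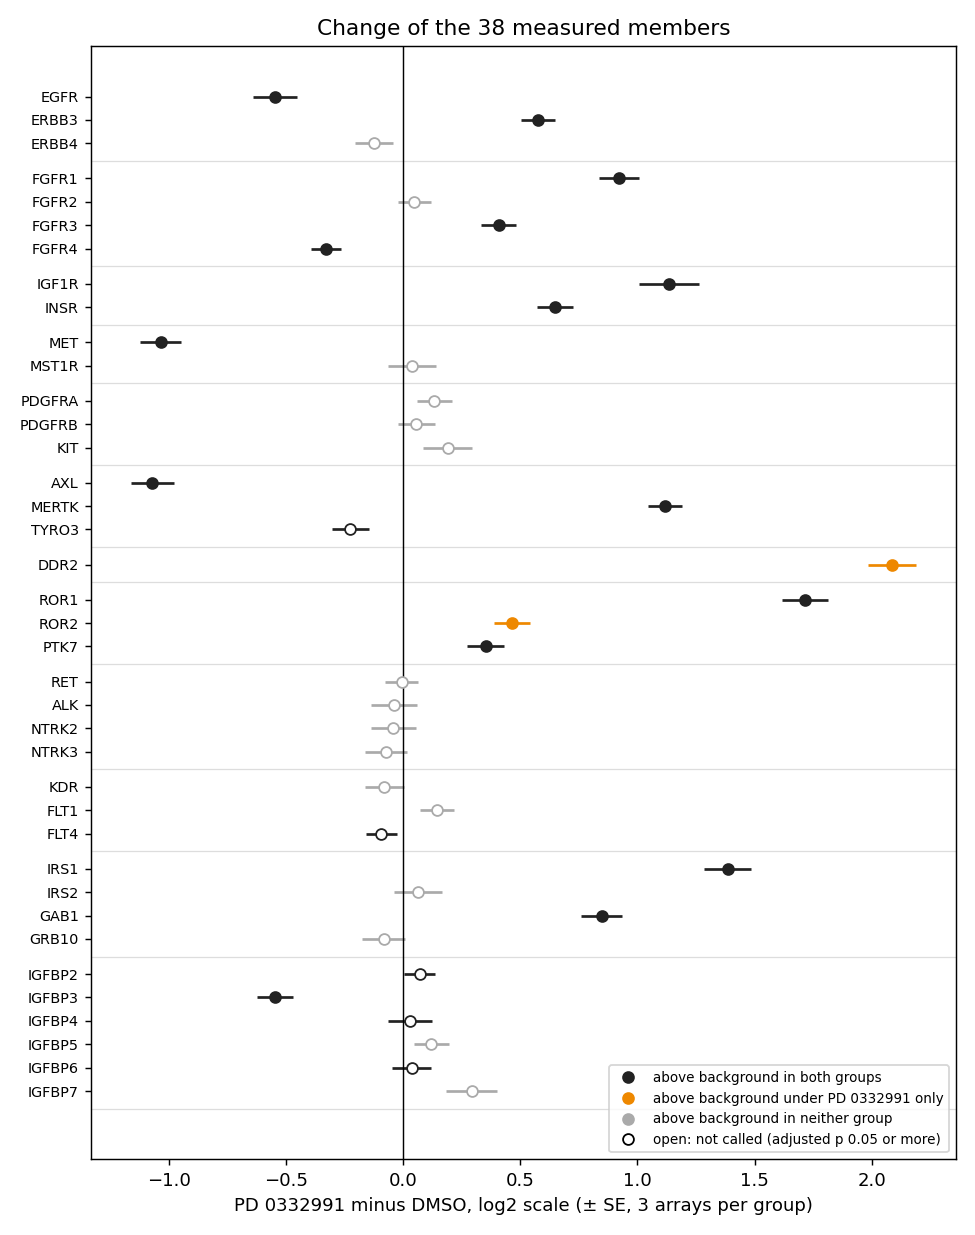
Change of each of the 38 measured members, PD 0332991 minus DMSO on the log2 scale, with SE bars over 3 arrays per group, grouped by receptor family, adaptors and IGF-binding proteins. Filled points passed the test and open points did not; changes run from -1.07 in AXL to 2.09 in DDR2, and every grey point, for a member above background in neither group, is open.

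The sequences before the start sites are shown for the members that changed by 1 or more and have a single start in the RefSeq promoter table (GRCh38.p14), since these carry the main changes and leave no choice between starts; AXL and DDR2 have several. Each run is the 250 bases before the start, 5′ to 3′ on the gene's strand. Capitals mark the GC box GGGCGG or the CCAAT box CCAAT, on either strand. The IGF1R window lies at chr15:98648289-98648538 on the plus strand, that of IRS1 at chr2:226799821-226800070 on the minus strand and that of ROR1 at chr1:63773767-63774016 on the plus strand. The MERTK window lies at chr2:111898357-111898606 on the plus strand, and that of MET, the only one of these genes that fell, at chr7:116671946-116672195 on the plus strand.
IGF1R: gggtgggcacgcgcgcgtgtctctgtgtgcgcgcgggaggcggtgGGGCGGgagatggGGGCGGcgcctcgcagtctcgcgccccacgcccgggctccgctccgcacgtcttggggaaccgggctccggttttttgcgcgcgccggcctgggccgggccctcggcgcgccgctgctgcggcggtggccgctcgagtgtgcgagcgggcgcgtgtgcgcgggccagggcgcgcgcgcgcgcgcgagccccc
IRS1: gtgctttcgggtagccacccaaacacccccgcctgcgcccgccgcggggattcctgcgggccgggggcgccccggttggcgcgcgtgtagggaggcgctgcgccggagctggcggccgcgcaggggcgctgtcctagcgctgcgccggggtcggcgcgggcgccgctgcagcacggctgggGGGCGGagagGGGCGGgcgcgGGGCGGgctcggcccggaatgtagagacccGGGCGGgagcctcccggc
ROR1: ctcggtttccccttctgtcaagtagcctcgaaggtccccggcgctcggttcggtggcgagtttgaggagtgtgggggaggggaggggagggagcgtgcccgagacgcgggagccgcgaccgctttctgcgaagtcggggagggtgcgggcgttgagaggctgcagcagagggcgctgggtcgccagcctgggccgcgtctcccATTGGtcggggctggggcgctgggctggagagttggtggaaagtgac
MERTK: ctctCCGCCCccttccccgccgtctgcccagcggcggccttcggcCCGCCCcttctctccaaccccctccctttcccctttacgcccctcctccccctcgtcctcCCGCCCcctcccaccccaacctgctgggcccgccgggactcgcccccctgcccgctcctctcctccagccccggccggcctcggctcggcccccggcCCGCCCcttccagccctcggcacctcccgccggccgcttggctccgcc
MET: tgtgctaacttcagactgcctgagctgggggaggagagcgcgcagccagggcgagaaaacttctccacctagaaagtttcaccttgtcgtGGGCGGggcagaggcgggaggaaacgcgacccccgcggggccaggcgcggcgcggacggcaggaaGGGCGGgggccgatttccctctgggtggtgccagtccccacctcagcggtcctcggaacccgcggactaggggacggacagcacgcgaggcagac

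The IRS1 and MERTK windows held 4 GC boxes each, the IGF1R and MET windows 2 each and the ROR1 window 0. ROR1 held the only CCAAT box among them. Among 34788 promoters of the same length 42.6% held a GC box and 32% a CCAAT box, on either strand. The pattern TTTNGCGC, a loose search for E2F sites with any base at N, is held by 1.49% of all promoters. It was found once, as TTTTGCGC in the IGF1R window. Whether E2F binds there was not tested. TATAAA, the AP-1 sequence TGANTCA and the FOXO sequence GTAAACA were in none of the 5 windows, and 10.8%, 6.59% and 2.98% of all promoters hold them. The GC content was 81.2% for IGF1R, 80.8% for IRS1, 78.8% for MERTK, 69.2% for ROR1 and 68.4% for MET, and its median over all promoters was 58%. GC boxes were thus found in 3 of the 4 windows of genes that rose and in that of MET, which fell. The table matched 33 of the 38 members by symbol, several of them with more than 1 start.

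Both hormone receptors of the IGF and insulin system rose. IGF1R binds IGF1 and IGF2. Its log2 levels were 9.27, 9.12 and 8.87 under DMSO and 10.09, 10.43 and 10.15 under PD 0332991. Every PD 0332991 array was above every DMSO array, and IGF1R rose by 1.13 ± 0.13 (SE, n = 3 per group; limma adjusted p = 0.000169). INSR, the insulin receptor and closest relative of IGF1R, had log2 levels of 5.54, 5.56 and 5.52 under DMSO and 6.16, 6.31 and 6.10 under PD 0332991. The groups did not overlap, and INSR rose by 0.65 ± 0.08 (limma adjusted p = 0.000228). The DMSO level of INSR, 5.54, stood only a little above the background level, so the size of its rise is uncertain.

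The docking proteins behind these receptors that stood above background, IRS1 and GAB1, rose as well. IRS1, the main substrate of both receptors, had log2 levels of 6.26, 5.88 and 6.0 under DMSO and 7.45, 7.45 and 7.39 under PD 0332991. It rose by 1.39 ± 0.10 (SE, n = 3 per group; limma adjusted p = 1.41e-05), and its 3 DMSO arrays were more spread (SD 0.19) than its 3 PD 0332991 arrays (SD 0.03). GAB1, a docking protein used by MET and EGFR, had log2 levels of 6.5, 6.34 and 6.23 under DMSO and 7.15, 7.30 and 7.16 under PD 0332991. The ranges did not meet, and GAB1 rose by 0.85 ± 0.09 (limma adjusted p = 0.000110). IRS2, the other widely expressed insulin receptor substrate, had a change of 0.06 ± 0.10, and GRB10, an adaptor that restrains the insulin and IGF1 receptors, one of -0.08 ± 0.09. Both were dim, at 4.44 and 4.51 under DMSO.

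Of the 6 IGF-binding proteins IGFBP3 fell and 5 did not pass (16.7% called). Over all genes 38.1% were called, and 61.3% of those above background in both groups, where 4 of the 6 lay. IGFBP3, the main carrier of IGFs in serum, had log2 levels of 6.48, 6.56 and 6.48 under DMSO and 5.97, 5.85 and 6.05 under PD 0332991. Every DMSO array was above every PD 0332991 array, and IGFBP3 fell by 0.55 ± 0.08 (SE, n = 3 per group; limma adjusted p = 0.000608). IGFBP2, IGFBP4 and IGFBP6 were above background in both groups with changes of 0.07 ± 0.07, 0.03 ± 0.09 and 0.04 ± 0.08. The dim IGFBP5 had a change of 0.12 ± 0.07. IGFBP7, a more distant relative, had a change of 0.29 ± 0.11 (limma adjusted p = 0.0697) with log2 levels of 4.03, 4.22 and 4.44 under DMSO and 4.44, 4.56 and 4.57 under PD 0332991. The lowest PD 0332991 array equalled the highest DMSO array to the second decimal, IGFBP7 lay below background, and it passed under 4 of 15 alternatives, among them leaving out DMSO replicate 3 (adjusted p = 0.0127).

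**Figure D3:**
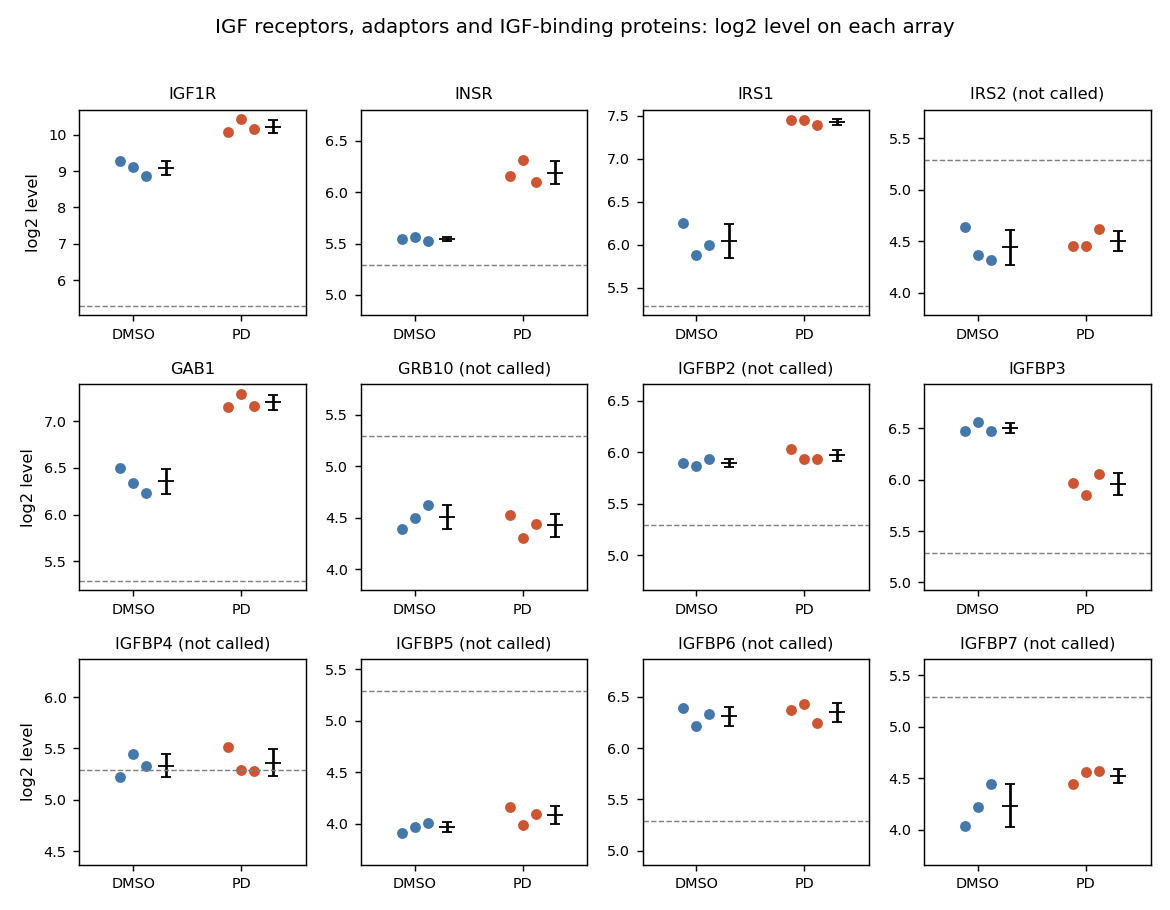
Deposited log2 level on each array for IGF1R, INSR, the 4 adaptors and the 6 IGF-binding proteins, DMSO at left and PD 0332991 (PD) at right; bars give mean ± SD over 3 arrays, the dashed line is the background level, and each panel has its own range on the vertical axis. The groups stand apart in IGF1R, INSR, IRS1, GAB1 and IGFBP3, while IRS2, GRB10, IGFBP5 and IGFBP7 lie below the dashed line in both groups.

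Among the ERBB receptors EGFR fell and ERBB3 rose. EGFR, the receptor for EGF and its relatives, had log2 levels of 9.56, 9.47 and 9.25 under DMSO and 8.83, 8.94 and 8.87 under PD 0332991. The groups did not overlap, and EGFR fell by 0.55 ± 0.09 (SE, n = 3 per group; limma adjusted p = 0.00179). ERBB3 binds neuregulins and signals through partner receptors, since its own kinase is weak. Its log2 levels were 5.38, 5.46 and 5.42 under DMSO and 5.99, 6.08 and 5.91 under PD 0332991. All PD 0332991 arrays were higher, and ERBB3 rose by 0.58 ± 0.07 (adjusted p = 0.000295, limma). Its DMSO level of 5.42 lay close to the background level, so the size of its rise is uncertain. The dim ERBB4, another neuregulin receptor, had a change of -0.12 ± 0.08.

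The FGF receptors went both ways. FGFR1 had log2 levels of 8.38, 8.20 and 8.18 under DMSO and 9.16, 9.27 and 9.08 under PD 0332991. Every drug array was higher, and FGFR1 rose by 0.92 ± 0.09 (SE, n = 3 per group; limma adjusted p = 5.48e-05). FGFR3 rose by 0.41 ± 0.08 from 5.45 ± 0.04 (SD) to 5.86 ± 0.10, and FGFR4 fell by 0.33 ± 0.06 from 5.99 ± 0.04 to 5.66 ± 0.04. Both passed (limma adjusted p = 0.00283 and 0.00394) with groups that did not overlap, at levels within 1 of background. FGFR2 was dim, with a change of 0.05 ± 0.07.

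MET, the receptor of hepatocyte growth factor, was one of the 2 members that fell by more than 1 on the log2 scale. Its log2 levels were 10.26, 10.30 and 10.05 under DMSO and 9.17, 9.25 and 9.09 under PD 0332991. Every DMSO array was higher, and MET fell by 1.03 ± 0.09 (SE, n = 3 per group; limma adjusted p = 3.25e-05). Its relative MST1R, the receptor of macrophage-stimulating protein, was dim, with a change of 0.04 ± 0.10.

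The TAM receptors AXL, MERTK and TYRO3 bind GAS6 and protein S, which bridge them to phosphatidylserine on dying cells. AXL fell and MERTK rose. AXL had log2 levels of 16.53, 16.33 and 16.21 under DMSO and 15.24, 15.33 and 15.30 under PD 0332991. All DMSO arrays were higher, and AXL fell by 1.07 ± 0.09 (SE, n = 3 per group; limma adjusted p = 3.71e-05). Its DMSO values exceeded 16, the log2 limit of 16-bit brightness. The highest value on each array was 19.76 to 19.89, so this concerns the scale of the whole table. The amount of this fall, and of the other changes given here, is thus tied to how the authors scaled the table. MERTK had log2 levels of 9.34, 9.48 and 9.40 under DMSO and 10.46, 10.55 and 10.57 under PD 0332991. All PD 0332991 arrays were higher by more than the spread within groups, and MERTK rose by 1.12 ± 0.07 (limma adjusted p = 7.29e-06). TYRO3 had a change of -0.22 ± 0.08 (limma adjusted p = 0.0531), from 7.36 ± 0.08 (SD) to 7.13 ± 0.09, with groups that did not overlap. It missed the threshold as tested here and passed under 6 of 16 alternatives, among them quantile normalization (adjusted p = 0.00843) and leaving out PD 0332991 replicate 2 (adjusted p = 0.0355).

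DDR2 had the largest rise among the members. It is a receptor for fibrillar collagens, best known in mesenchymal cells. Its log2 levels were 5.11, 5.19 and 5.26 under DMSO and 7.06, 7.41 and 7.35 under PD 0332991. The groups did not overlap, and DDR2 rose by 2.09 ± 0.10 (SE, n = 3 per group; limma adjusted p = 1.72e-06). Its DMSO arrays all lay below the background level, and the PD 0332991 mean of 7.28 lay 1.99 above that level, so the rise is uncertain in size. The mesenchymal markers beside it did not move together, VIM with a change of -0.57 and CDH2 with one of 0.26, both called. The 4 measured fibroblast markers COL1A1, COL1A2, DCN and LUM were below background in both groups and not called.

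ROR1, ROR2 and PTK7 are receptors of non-canonical Wnt signalling with weak or absent kinase activity, and all 3 rose. ROR1, known mainly from embryonic tissue and tumours, had log2 levels of 6.39, 6.22 and 6.27 under DMSO and 7.86, 8.19 and 7.97 under PD 0332991. The groups did not overlap, and ROR1 rose by 1.71 ± 0.10 (SE, n = 3 per group; limma adjusted p = 3.93e-06). ROR2, a receptor for WNT5A, had log2 levels of 5.20, 5.39 and 5.27 under DMSO and 5.83, 5.74 and 5.69 under PD 0332991. It rose by 0.46 ± 0.08 (limma adjusted p = 0.00157), with a DMSO mean just below the background level. PTK7, which acts in planar cell polarity, went from 5.99 ± 0.06 (SD) to 6.34 ± 0.10 and rose by 0.35 ± 0.08 (limma adjusted p = 0.00759). Without DMSO replicate 1 and PD 0332991 replicate 2 its adjusted p was 0.0477, the highest among the 17 called members. RYK, a related Wnt receptor that is not among the 40, rose by 0.44 ± 0.06.

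**Figure D4:**
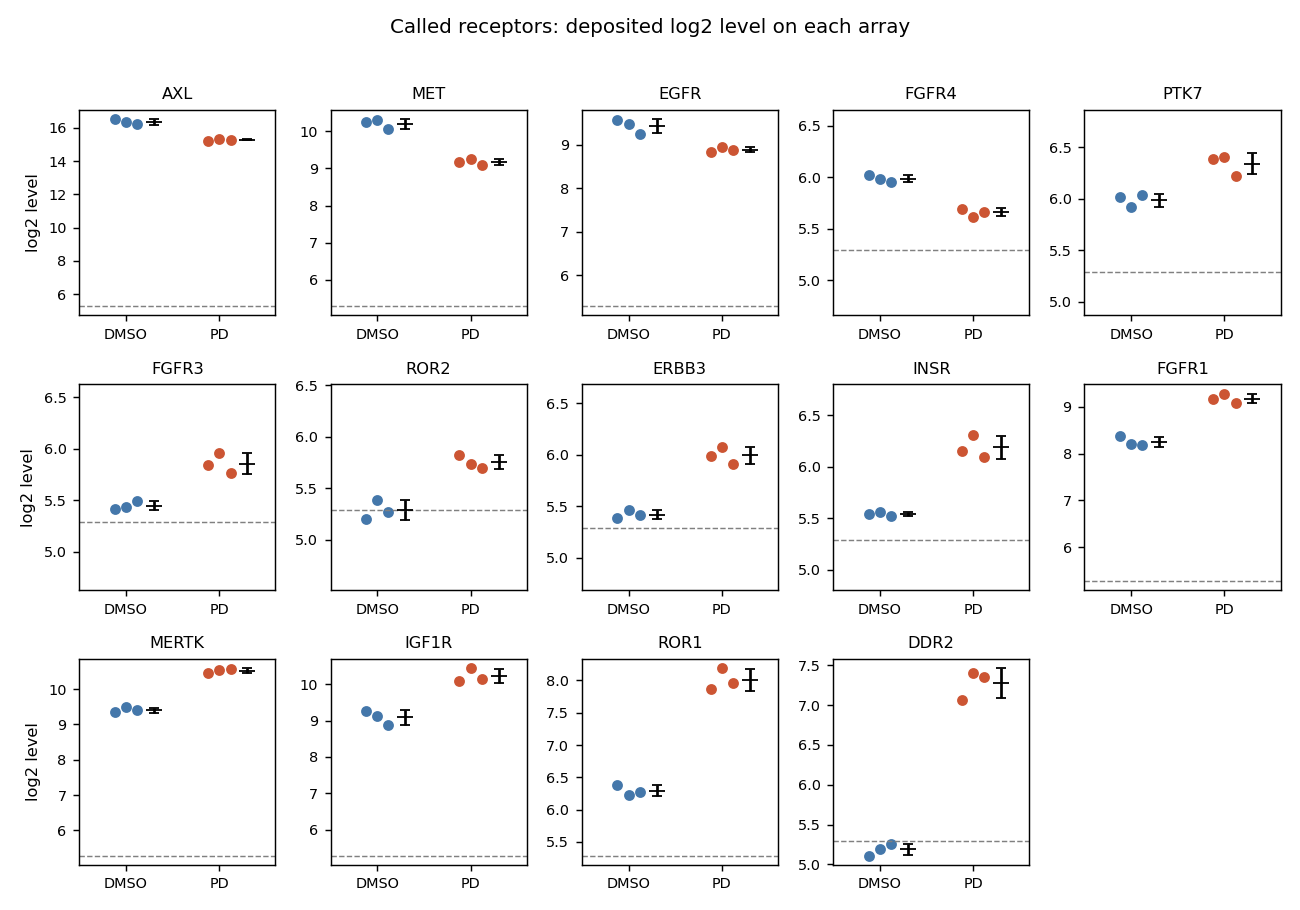
Deposited log2 level on each array for the 14 called receptors, in order of their change from AXL (-1.07) to DDR2 (2.09), DMSO at left and PD 0332991 (PD) at right; bars give mean ± SD over 3 arrays, the dashed line is the background level of 5.29, and each panel has its own range. In each panel the groups do not overlap, and FGFR3, ERBB3, INSR, ROR2 and DDR2 start close to the dashed line.

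The receptors of vessels, stroma and nerve were mostly dim. The VEGF receptors KDR and FLT1 had changes of -0.08 ± 0.08 and 0.14 ± 0.07. FLT4, the receptor of lymphatic vessels, had a change of -0.09 ± 0.06 from 5.39. The PDGF receptors PDGFRA and PDGFRB had changes of 0.13 ± 0.07 and 0.06 ± 0.08. KIT, the receptor of stem cell factor, had a change of 0.19 ± 0.10 (limma adjusted p = 0.218) and passed only without PD 0332991 replicate 3 (adjusted p = 0.0333). RET and ALK had changes of -0.01 ± 0.07 and -0.04 ± 0.10, and the neurotrophin receptors NTRK2 and NTRK3 had changes of -0.04 ± 0.10 and -0.07 ± 0.09. Of 10 measured other receptor tyrosine kinases, only RYK and STYK1 stood above background, RYK rose and the other 9 did not pass. This is 10% called, beside 38.1% of all genes. The remaining 8 lay above background in neither group, where 5.04% of all genes were called.

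Of 28 measured ligand genes 8 rose, 7 fell and 13 did not pass (53.6% called, beside 38.1% of all genes and 61.3% of all genes above background in both groups, where 20 of the ligands lay). PDGFD, a ligand of PDGFRB, went from 6.24 ± 0.10 (SD) to 8.37 ± 0.09 and rose by 2.13 ± 0.08 (SE, n = 3 per group), while both PDGF receptors were dim. PDGFC, mainly a ligand of PDGFRA, rose by 1.06 ± 0.08. PROS1, which encodes protein S, rose by 1.92 ± 0.10, from 9.03 ± 0.12 to 10.95 ± 0.14, and GAS6 rose by 0.40 ± 0.10, beside the fall of AXL and the rise of MERTK. NRG1, the neuregulin that ERBB3 and ERBB4 bind, fell by 1.28 ± 0.07, from 7.54 ± 0.06 to 6.27 ± 0.04. As the mean of its 2 clusters NRG1 fell by 0.83 (limma adjusted p = 0.00128), which is less than in the brighter cluster alone. NRG2, a related ligand, fell by 0.26 ± 0.06, a call lost with all clusters adjusted together (adjusted p = 0.0629) and without DMSO replicate 1 and PD 0332991 replicate 2 (adjusted p = 0.0534). The EGFR ligand gene HBEGF fell by 0.87 ± 0.11 and BTC, for betacellulin, rose by 1.25 ± 0.15 from 5.34, close to the background level. EGF, below background in both groups, rose by 0.51 ± 0.10. Of 5 measured FGF genes 3 fell, where 18.5% of all genes were called lower. The FGF genes were set apart after their values were seen, so this count is no result about the family. These falls stood beside the rise of FGFR1 and FGFR3 and the fall of FGFR4. FGF2 fell by 0.40 ± 0.08 from 9.16, FGF5 fell by 0.44 ± 0.07 from 11.38, and FGF1, below background in both groups, fell by 0.71 ± 0.08. FGF9 and FGF18 had changes of 0.02 ± 0.10 and 0.15 ± 0.09. KITLG, the ligand of the dim KIT, rose by 0.66 ± 0.11, VEGFB, a ligand of FLT1, rose by 0.34 ± 0.08, and BDNF, a ligand of NTRK2, fell by 0.49 ± 0.08. All 15 called ligands are thus named; only PDGFD, PROS1 and NRG1 come from the rule for named genes, and the rest were added after their values were seen. Differences between a ligand's change and its receptor's were not tested.

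**Figure D5:**
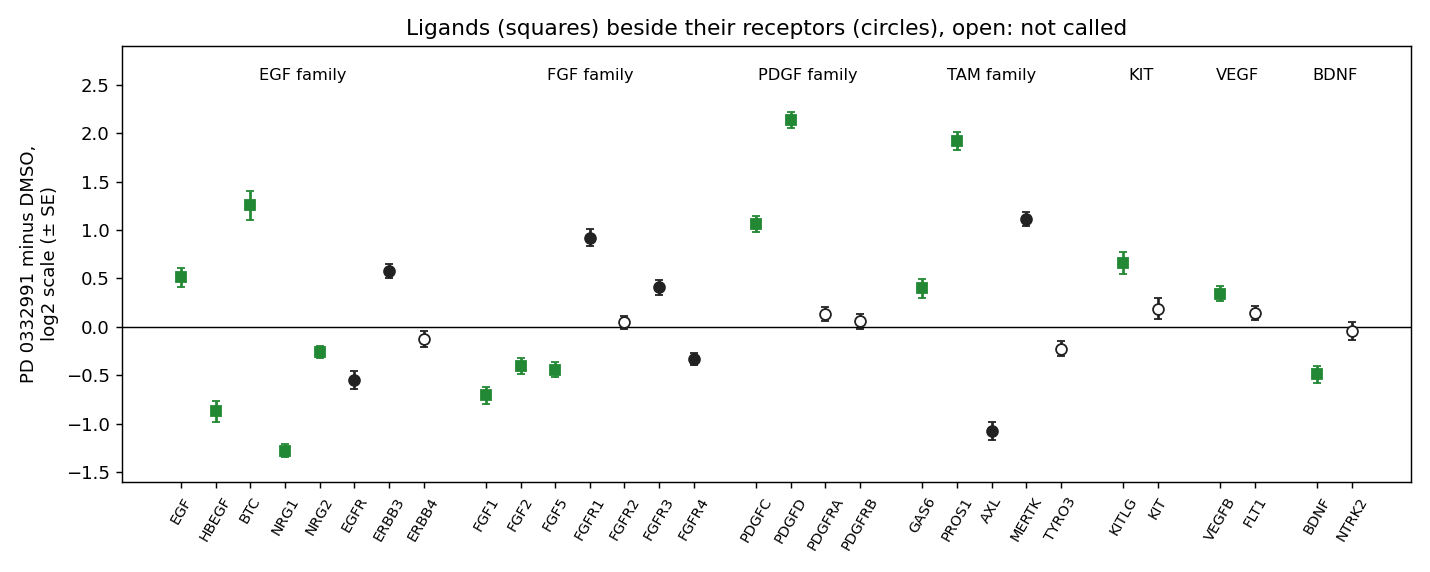
Change of the 15 called ligand genes (squares) and receptors they are known to bind (circles), PD 0332991 minus DMSO on the log2 scale with SE bars, 3 arrays per group; open symbols did not pass the test. PDGFC, PDGFD, KITLG and VEGFB rose beside receptors that did not pass. The 3 FGF genes, with FGF1 below background in both groups, fell. Of their receptors FGFR1 and FGFR3 rose, FGFR4 fell and FGFR2 did not pass. GAS6 and PROS1 rose beside AXL, which fell, MERTK, which rose, and TYRO3, which did not pass.

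Genes listed as negative regulators of receptors were called in 9 of 12 measured cases, 5 lower and 4 higher. This is 75% of a list with 10 members above background in both groups, where 61.3% of all genes were called. What each listed gene does to receptors in these cells was not tested. UBASH3B, a phosphatase that binds the ubiquitin ligase CBL, went from 9.31 ± 0.13 (SD) to 6.67 ± 0.08 and fell by 2.64 ± 0.09 (SE, n = 3 per group). ERRFI1, an inhibitor of EGFR and its relatives, fell by 1.81 ± 0.09, and the receptor phosphatase gene PTPRF fell by 1.55 ± 0.11. Among 12 other adaptors there were 4 rises and 2 falls, and 6 did not pass. That is 50% called, with 10 of the 12 above background in both groups, where 61.3% of all genes were called. GRB14, an inhibitor of the insulin receptor, fell by 0.96 ± 0.07, SOS2, an activator of RAS, rose by 0.85 ± 0.09, and PTPN11, for the phosphatase SHP2, fell by 0.74 ± 0.08.

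Other genes of the IGF axis split into 2 that rose, 5 that fell and 5 that did not pass, of 12 measured (58.3% called). Of these genes 9 lay above background in both groups, where 61.3% of all genes were called. IGF2R, the receptor that clears IGF2 and carries lysosomal enzymes, went from 9.94 ± 0.17 (SD) to 12.26 ± 0.13 and rose by 2.32 ± 0.11 (SE, n = 3 per group). STC2, for a stanniocalcin that inhibits the protease PAPP-A, fell by 1.5 ± 0.09, and IGFBPL1 fell by 1.41 ± 0.11. The ligand gene IGF1 was dim, at 4.70 and 4.73. IGF2 shares its cluster with other symbols and was not analysed here. Among 8 measured PI3K, AKT and FOXO genes there were 5 rises and 0 falls. All 8 lay above background in both groups, and their share of 62.5% called is near the 61.3% of all such genes. The regulatory subunit genes PIK3R3 and PIK3R1 rose by 1.34 ± 0.09 and 0.65 ± 0.08, and the transcription factor gene FOXO4 rose by 0.95 ± 0.07. Of 6 coreceptors and sheddases 3 rose and 1 fell (66.7% called). In this list 4 genes lay above background in both groups, where 61.3% of all genes were called, and 1 called gene lay below it in both. The protease genes ADAM9 and ADAM10 fell by 0.63 ± 0.07 and rose by 0.62 ± 0.08, and the VEGF-C coreceptor gene NRP2 rose by 0.29 ± 0.07. The NRP2 call was lost with arrays centred on their medians (adjusted p = 0.0714) and with all clusters adjusted together (adjusted p = 0.0610). The ligands and other pathway genes named as changed had limma adjusted p-values of at most 0.0122, that of NRP2. Over all the lists of other pathway genes 27 of 88 measured genes rose and 20 fell by limma (53.4% called). Of these 88 genes 63 lay above background in both groups. Over all genes 38.1% were called, and 61.3% of those above background in both groups.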

How the data were processed

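The authors deposited 1 table of log2 values for 65535 transcript clusters on 6 arrays. Per the submitters' processing notes it came from Affymetrix Expression Console, whose version and settings (background, summary, normalization) the sources used here do not give. The labels name 2 preparation kits without settling between them. The row count equals a spreadsheet limit, so clusters may be missing. The platform annotation paired 22685 clusters with 1 symbol, 1385 with several and 41465 with none, and the cluster with the highest mean stood for each of 22375 genes. RefSeq gene identifiers matched 36 of the 38 members, all with the same symbol.

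PD 0332991 was compared with DMSO in R 4.3.3 with limma 3.58.1 (lmFit, eBayes, 4 residual degrees of freedom, no further scaling), two-sided, with the Benjamini-Hochberg adjustment over all genes and calls at 0.05. All adjusted p-values come from limma. The fit was tried on simulated data with independent noise and changes in few genes. That run checks the code and cannot bear on the calls made here. Precision is limited by the number of arrays, with a median SE of 0.0875 per log2 change. From each list of other pathway genes, up to 3 called genes with the largest change and a group mean above background were named. Members and lists were chosen with earlier results of these data known. Same-numbered arrays did not deviate together (correlations across genes of -0.33, -0.15 and 0.10), so replicate number was not a term. The highest correlation between differently numbered arrays was 0.41, for DMSO replicate 1 with PD 0332991 replicate 2. That for DMSO replicate 3 with PD 0332991 replicate 1 was 0.24. Whether such arrays were handled together is not in the labels. Alternatives were other scalings, filters, variance models, the replicate block, other background levels and leaving out arrays.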

Additional observations from a re-analysis of the deposited data

How the results depend on the processing

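All 17 called members kept their direction and call under the 16 alternatives run for each, including leaving out each array in turn and, chosen after seeing the data, DMSO replicate 1 with PD 0332991 replicate 2. Of the 21 uncalled members 18 were called under none of the alternatives run for them; TYRO3, IGFBP7 and KIT were the exceptions. The order of AXL and MET is not settled: MET fell further under quantile normalization (-0.96 against -0.93), array weights (-1.13 against -1.05), without DMSO replicate 1 (-1.01 against -0.98) and without DMSO replicate 1 and PD 0332991 replicate 2 (-1.05 against -1.0). Members called ranged from 12 to 13 higher and from 5 to 6 lower, both without single arrays and under the other alternatives. The replicate block gave 12 higher and 5 lower members and, over all genes, 3902 higher and 3806 lower against 4382 and 4147. It changed no call of a member. Without both arrays named above, 3858 genes were higher and 3776 lower. Without single arrays, the other pathway genes gave 24 to 27 higher and 20 lower. The background level moved the classes. At the 99th percentile of olfactory receptor genes 7 members were above it in both groups, 4 in 1 group and 27 in neither. In 1 group only there were 0 members at the 90th percentile, 0 at the median plus 3 median absolute deviations and 1 at the median of the table. For the 16 members below background the SE of the changes was 0.07 to 0.11, so level over background, more than the spread between arrays, limits what is said of them.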
